A study of Mus musculus with 16 samples.

Results

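The 10 genes described here encode the proximal signalling proteins of the Toll-like receptors (TLRs): the adaptors Myd88, Tirap, Ticam1 and Ticam2, the kinases and pseudokinases Irak1, Irak2, Irak3 and Irak4, and the ubiquitin ligases Traf3 and Traf6. They were chosen by gene symbol, with earlier results of these data known, and all 10 were found among the 14925 genes with a symbol in the deposited 3′-UTR tables. To find the mRNAs that CPEB4 binds, RNA was immunoprecipitated with an antibody against it from bone marrow-derived macrophages (BMDMs) of adult mice and sequenced (RIP-seq). One wildtype (WT) culture, numbered 76, and one CPEB4 KO culture, numbered 73, were kept without LPS or received 10 ng/ml LPS for 9 h. Both carry the strain label C57BL/6J 129. The KO cells came from mice that lack Cpeb4 in the whole body, not in myeloid cells alone. For each, the antibody-bound RNA (RIP) and the whole lysate RNA (Input) were read, and the KO RIP was meant as the background of the WT RIP. Each of the 8 libraries was run on 2 lanes that the deposited tables sum, which leaves 1 library per genotype, treatment and assay. No difference below has a replicate check, and the intervals given cover counting error only, not the spread between cultures.

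In TLR4 signalling, the bacterial lipopolysaccharide (LPS) receptor engages a pair of adaptor routes. MyD88, brought to the membrane by TIRAP, assembles IRAK4 with IRAK1 or IRAK2 and passes the signal to the ubiquitin ligase TRAF6 and on to NF-κB and the MAP kinases, whereas TRIF, the product of Ticam1, is recruited by TRAM, the product of Ticam2, and signals through TRAF3 to type I interferon. IRAK-M, the product of Irak3, is a pseudokinase known for restraining this signal in macrophages that have already met LPS. CPEB4 binds RNA at the cytoplasmic polyadenylation element (CPE), a short U-rich motif of 3′-UTRs, and acts there on the poly(A) tail, translation and stability of the mRNA.

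The counted regions of the 10 genes were searched on the sense strand, in the GRCm38.p6 genome sequence, for the CPE letters TTTTAT or TTTTAAT or TTTTAAAT or TTTTACT or TTTTCAT or TTTTAAGT or TTTTGT. They were also searched for the AU-rich pentamer ATTTA, the core of the elements that recruit mRNA decay factors, and for the polyadenylation signals AATAAA and ATTAAA. Matches may overlap each other. Windows of 30 bases are shown to place the CPE against the signal that directs 3′-end formation. For 4 genes the window holds the CPE nearest to the last polyadenylation signal within 100 bases of the 3′ end of the region, with the CPE in capitals (for Irak1 the signal also fits in the window and is in capitals too). Myd88, which has no CPE, is shown by its last polyadenylation signal in capitals, a choice made after its values were seen. No window is shown for the other genes.
Myd88, chr9:119335947-119335976, minus strand: gtgtgaatttatAATAAAaagtattctatt
Tirap, chr9:35184669-35184698, minus strand: gagaaagtatatTTTTATtggagttgtatt
Irak1, chrX:74013922-74013951, minus strand: tctgaaAATAAAgataaTTTTACTccattg
Irak2, chr6:113694778-113694807, plus strand: tttttgttttttTTTTGTtttttcgagaca
Traf3, chr12:111267088-111267117, plus strand: tagaatgcagaaTTTTGTaatgctcaagtg
In Irak1 the CPE lay 5 bases downstream of the signal. In Traf3 25 bases separated them, and in Tirap and Irak2 the CPE lay 108 and 195 bases upstream of the signal.

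At least 1 CPE was present in 8 of the 10 regions, against 73.4% of the regions of all genes. The Myd88 region of 966 bases held none, although 82.6% of the 2040 other regions within 20% of its length held at least 1. Neither did the counted Irak3 region of 1029 bases, for which the share of like-length regions was 83.0%. The 3′-UTR of the coding Irak3 transcript, chr10:120141648-120142714, was not the region counted, and it held 1 CPE and 1 AU-rich pentamer. Traf3 held 11 CPEs in 5093 bases, Tirap 9 in 3360 bases and Traf6 7 in 4170 bases. These numbers followed length: 66.1%, 53.8% and 77.0% of like-length regions held at least as many. Irak2, with 5 CPEs in 1229 bases, had the densest region, and 30.1% of like-length regions held at least as many. Ticam2 held 3, Irak1 and Irak4 2 each and Ticam1 1. The AU-rich pentamer occurred 11 times in Traf6, where 20.4% of like-length regions held at least as many, 4 times in Irak2 (20.8%), 3 times each in Tirap and Traf3, and once each in Myd88, Irak1 and Irak4. No match was found in the counted regions of Ticam1, Ticam2 and Irak3. The CPE prediction that the authors deposited, which also weighs positions, named Tirap alone of the 10, as a repression type, against 31.8% of all genes with any prediction.

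**Figure D1:**
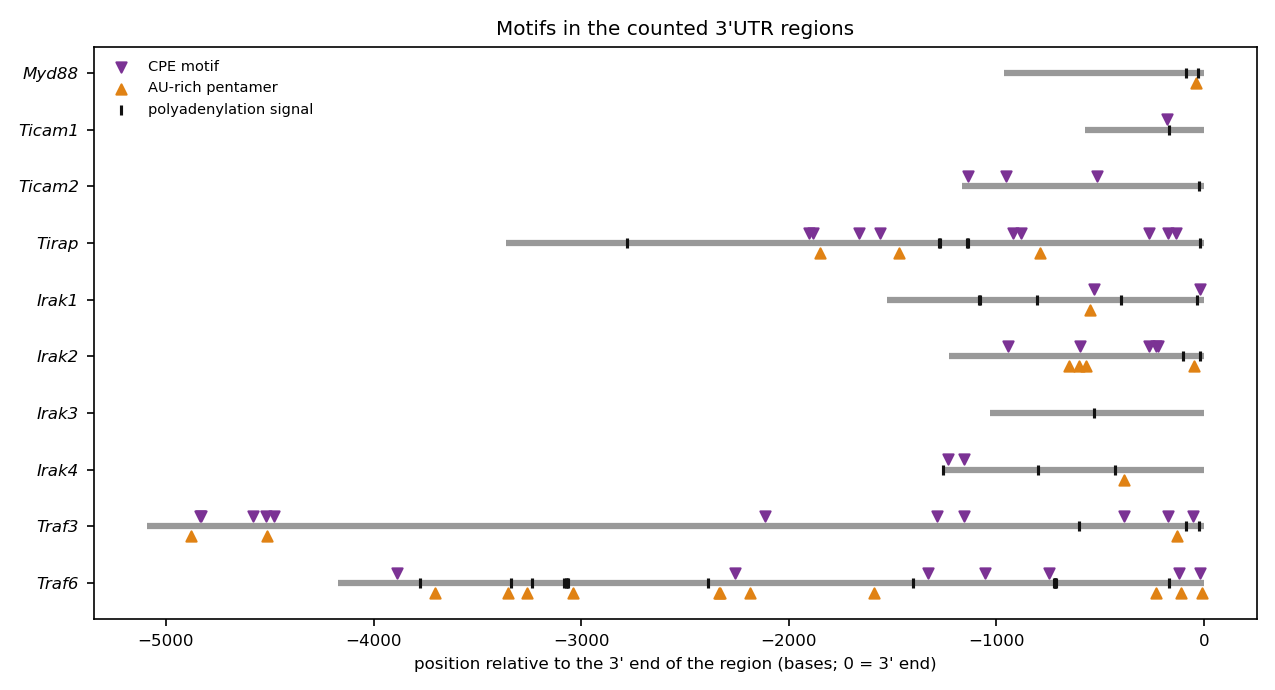
Positions of CPE motifs (purple), AU-rich pentamers (orange) and polyadenylation signals (black bars) along the counted 3′-UTR region of each gene, drawn to scale in bases from the 3′ end at 0. The counted regions of Myd88 and Irak3 carry no CPE, and that of Traf6 carries 11 AU-rich pentamers.

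The libraries held from 467696 (KO RIP, untreated) to 2492300 (WT RIP, LPS) reads over 3′-UTRs. Levels are given as CPM (these reads scaled to the same total in each library), for the most-read region of each gene. Ratios are log2 ratios of the same scaled counts after 1 read was added to each library. The share of the authors' library totals that these reads made up was 48.9% and 70.1% in the WT RIPs but 27.3% and 31.8% in the KO RIPs. On the library totals, every WT over KO ratio of the RIPs is therefore higher, by a log2 value of 0.84 when untreated and 1.14 after LPS that is common to all genes, so ratios are read against the median of all genes. The region of Cpeb4 was measured at 130 and 136 CPM in the WT Inputs and 52.0 and 52.6 CPM in the KO Inputs (untreated and LPS). It stood at 836 and 770 CPM in the WT RIPs and at 257 and 367 CPM in the KO RIPs, so the libraries labelled KO still held Cpeb4 reads, and more of them in the RIP than in the Input. On 3′-UTR totals the Cpeb4 RIP stood 6.37-fold and 5.65-fold above its Input in the WT and 4.90-fold and 6.92-fold in the KO. Library totals shift these log2 ratios by 0.06 and 0.51 in the WT and by −0.77 and −0.68 in the KO. Which exons the knockout allele lacks is not given in the sources used here. The 8 macrophage markers that were in the tables summed to 2466 to 3913 CPM in the Inputs, and the 9 markers of other blood and stromal cells that were in the tables summed to at most 2.26 CPM, none with more than 3 reads in an Input. In bulk RNA, fewer cells of a type and less RNA per cell cannot be told apart.

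All 10 genes had at least 10 reads in each pair of libraries compared. The fewest reads were 3, for Tirap in the untreated KO RIP, and Irak3 had 8 in that library. A gene is counted as higher or lower where its ratio passed 2-fold, that is 1 or −1 on the log2 scale.

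**Figure D2:**
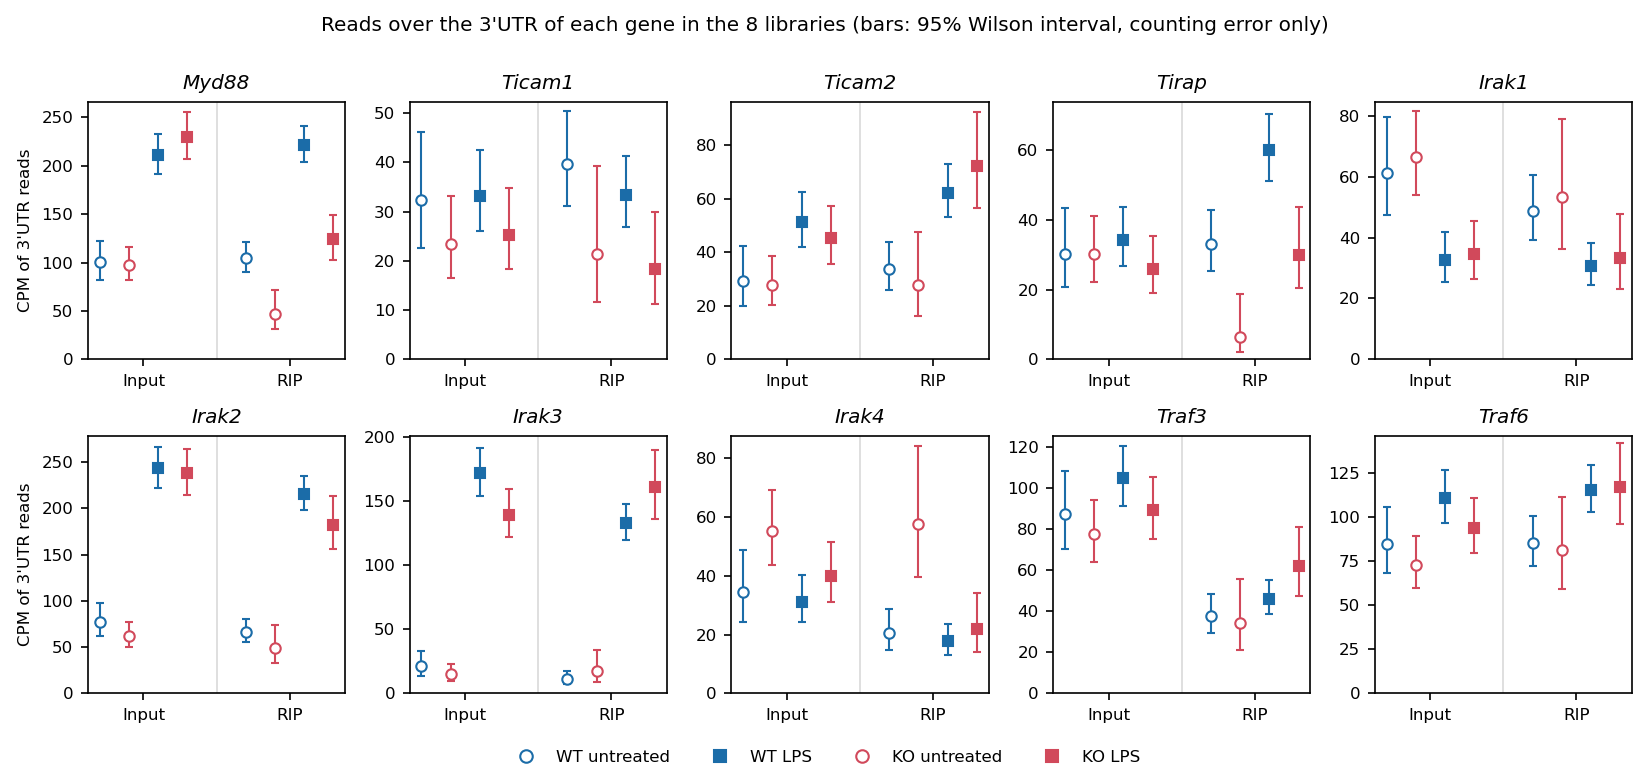
Level of each gene in the 8 libraries, in CPM of 3′-UTR reads on a linear axis from 0. Points are single libraries (WT blue, KO red, untreated open, LPS filled) and bars are 95% Wilson intervals of the read count. The KO RIP points of Myd88 lie below those of its Inputs, and the LPS points of Irak2 and Irak3 lie far above the untreated ones in Input and RIP.

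Myd88 and Tirap, which together make up the MyD88 adaptor route, were the members whose mRNA was most over-represented in the WT RIPs relative to the KO RIPs. For Myd88, the adaptor shared by most TLRs, the region chr9:119335934-119336899 (mm10, minus strand, the last stretch of its 3′-UTR) was at 100 CPM in the untreated WT Input and at 104 CPM in the WT RIP, and at 97.3 CPM in the KO Input and 47.0 CPM in the KO RIP. After LPS the WT Input and RIP were at 211 and 222 CPM, and the KO Input and RIP at 230 and 124 CPM. On 3′-UTR totals the WT RIP thus matched its Input at both treatments while the KO RIP stood at 0.502 (untreated) and 0.543 (LPS) of its own. The Wilson intervals of the WT and KO RIP did not overlap. On library totals the log2 ratio of WT RIP over Input shifts by 0.51 for all genes after LPS, which puts the Myd88 RIP above its Input there. The WT over KO RIP ratio was 1.09 untreated (95% counting interval 0.47 to 1.72) and 0.83 after LPS (0.53 to 1.13). The Inputs of both genotypes were alike (0.05, −0.34 to 0.43, and −0.12, −0.33 to 0.09), so the input-corrected ratio, in which the log2 ratio between Inputs is taken off the one between RIPs, was 1.05 (0.31 to 1.78) and 0.95 (0.59 to 1.31). Myd88 also carried a deposited MACS peak in the WT RIP after LPS, with a score of 102, where 15.4% of all genes had a peak in the region counted. It had no peak in the other RIPs, where 6.83% (WT, untreated), 1.03% (KO, untreated) and 1.17% (KO, LPS) of all genes had one. No CPE was found in its region. The counted region of Irak3, with RIP ratios below 0 on 3′-UTR totals, also held none. The 3′-UTR of the coding Irak3 transcript held 1.

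Tirap, the membrane sorting adaptor of MyD88, was counted over chr9:35184551-35187910 (minus strand, 3′-UTR). The untreated libraries held 30.1 CPM in the WT Input, 30.2 in the KO Input, 33.0 in the WT RIP and 6.41 in the KO RIP, the last of these from 3 reads. After LPS the levels were 34.3 CPM in the WT Input, 26.0 in the KO Input, 60.2 in the WT RIP and 29.8 in the KO RIP. The KO RIP was the lowest of the untreated libraries, and the WT RIP was the highest after LPS. Its WT over KO RIP ratio was 1.97 untreated (0.51 to 3.44), the highest of the 10, and 0.97 after LPS (0.38 to 1.56). The input-corrected ratio was 1.96 (0.34 to 3.58) untreated, whereas after LPS it was 0.58 with an interval that crossed 0 (−0.24 to 1.4). In the WT RIP, the LPS library exceeded the untreated one by 0.85 (0.41 to 1.29), while the WT Input moved by 0.16 (−0.47 to 0.79). The difference between these changes was 0.69 (−0.08 to 1.46), and in the KO, where it rests on the 3 reads, it was 2.07 (0.43 to 3.71). The CPEs of Tirap all lie in the distal part of its long 3′-UTR, and the shorter annotated regions that end upstream of them hold none. Read over the 1126-base region the WT over KO ratio was 1.11 untreated (−0.63 to 2.84) and 0.96 after LPS (−0.20 to 2.12), on 2 and 6 KO RIP reads. That region lies inside the counted one, so its reads may also come from the long 3′-UTR that carries the CPEs.

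For the adaptors of the TRIF route, every input-corrected ratio had an interval that crossed 0. Ticam1, which encodes TRIF, was counted over chr17:56269319-56269894 (minus strand, 3′-UTR) at 32.3 and 33.2 CPM in the WT Inputs (untreated and LPS) and 23.4 and 25.3 CPM in the KO Inputs. Its RIP levels were 39.6 and 33.3 CPM in the WT and 21.4 and 18.4 CPM in the KO, on 10 and 16 reads. The WT RIPs were above the KO RIPs at both treatments, by 0.77 (−0.15 to 1.69) and 0.79 (0.04 to 1.54), but the WT Inputs were also above the KO Inputs, and the input-corrected ratios of 0.31 (−0.86 to 1.47) and 0.41 (−0.54 to 1.36) crossed 0. Ticam2, which encodes the bridging adaptor TRAM, lies on chromosome 18, and 85 bases of its region are also an exon of Tmed7 on the same strand, so reads there cannot be assigned to one gene. Its levels were 29.1 and 51.1 CPM in the WT Inputs, 27.9 and 45.3 in the KO Inputs, 33.6 and 62.2 in the WT RIPs and 27.8 and 72.3 in the KO RIPs. Every LPS library of Ticam2 exceeded its untreated counterpart, whereas the genotypes stood close together, with WT over KO ratios of the RIPs of 0.19 (−0.65 to 1.04) and −0.23 (−0.65 to 0.19), the second of which turns to 0.91 on library totals.

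Irak4, the kinase that starts the Myddosome cascade, differed in the other direction. The region chr15:94567047-94568306 (plus strand, 3′-UTR of one transcript) was at 34.4 CPM in the untreated WT Input, 55.1 in the KO Input, 20.4 in the WT RIP and 57.7 in the KO RIP. After LPS these levels were 31.1, 39.9, 17.7 and 21.8 CPM. Both KO libraries were higher than their WT counterparts at each treatment, most of all in the untreated RIP. The WT over KO RIP ratio was −1.51 untreated (−2.23 to −0.79), and −0.67 on library totals, against −0.35 after LPS (−1.11 to 0.41), which turns to 0.79 on library totals. The change of the ratio between treatments was 1.16 (0.12 to 2.21). The untreated Inputs differed the same way (−0.65, −1.24 to −0.06), and the input-corrected ratio of −0.86 (−1.79 to 0.07) crossed 0. The other annotated 3′-UTR of Irak4, chr15:94579903-94581815, had 6 and 20 reads in the WT Inputs, 4 and 14 in the KO Inputs, 12 and 45 in the WT RIPs and 7 and 26 in the KO RIPs. Unlike the proximal region it stood above its Input in the KO RIPs, with RIP over Input ratios of 2.18 (0.57 to 3.79) and 1.63 (0.72 to 2.54), against 0.05 (−1.28 to 1.38) and 0.74 (−0.01 to 1.48) in the WT. The deposited MACS scores of this region were 108 and 289 in the WT RIPs and 0 in the KO RIPs. A score of 0 was the rule in the KO RIPs. Over the counted regions of all genes, 1.03% (untreated) and 1.17% (LPS) had a peak there, against 6.83% and 15.4% in the WT RIPs. In this distal region the scores were thus higher in the WT, and on 3′-UTR totals the read ratios were higher in the KO. On library totals every RIP over Input ratio after LPS shifts by 0.51 in the WT and −0.68 in the KO, which reverses that order. Untreated, the shifts are 0.06 and −0.77, and the order holds.

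Irak1, the kinase that is degraded after receptor engagement, was counted over chrX:74013914-74015439 (minus strand, 3′-UTR, with 65 bases coding in another transcript). Its levels were 61.4 and 32.7 CPM in the WT Inputs, 66.4 and 34.6 in the KO Inputs, 48.6 and 30.5 in the WT RIPs and 53.5 and 33.3 in the KO RIPs. WT and KO differed by less than counting error in every pair, with RIP ratios of −0.18 (−0.81 to 0.46) and −0.16 (−0.76 to 0.45), both above 0 on library totals at 0.67 and 0.98. A nested region of 200 bases at the 3′ end, which holds the CPE shown beside the polyadenylation signal, had 14 and 12 reads in the WT RIPs and 0 in both KO RIPs, with 24 and 10 reads in the KO Inputs and 10 and 18 in the WT Inputs. Against a floor of 3 reads per library, which is 6.41 and 3.44 CPM in the KO RIPs, the WT RIP was at least 1.31-fold higher untreated and at least 1.4-fold higher after LPS, and the KO RIP was at least 2.82-fold and 1.93-fold lower than the KO Input. This stretch was singled out after its values were seen. The 469-base region at the other end (chrX:74014971-74015439), which holds no CPE, went the other way on 3′-UTR totals. Its WT over KO RIP ratios were −1.01 (−1.99 to −0.03) untreated and −0.57 (−1.54 to 0.39) after LPS. The short regions of 82 and 118 bases there were also below 0 after LPS, at −1.52 (−3.30 to 0.27) and −1.84 (−3.73 to 0.06). Library totals shift these ratios up by 0.84 untreated and 1.14 after LPS. The LPS ratio of the 469-base region then lies above 0, and its untreated interval crosses 0. The reads of these stretches lie within or overlap the whole region, whose counts did not separate the genotypes.

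Irak2, the kinase of the later phase of the response, was counted over chr6:113693781-113695009 (plus strand, 3′-UTR). It was at 77.5 and 243 CPM in the WT Inputs, 62.6 and 238 in the KO Inputs, 66.6 and 216 in the WT RIPs and 49.2 and 182 in the KO RIPs. The lowest of the 4 LPS libraries, at 182 CPM, lay above the highest of the 4 untreated ones, at 77.5 CPM. The WT over KO RIP ratios were smaller than this, at 0.39 (−0.25 to 1.03) and 0.24 (−0.02 to 0.49), but 1.23 and 1.38 on library totals.

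Irak3, which encodes IRAK-M, had the strongest LPS difference of the 10. The region with the most reads, chr10:120142163-120143191 (minus strand), belongs to a transcript annotated to nonsense-mediated decay, and 474 of its 1029 bases are coding in another transcript, so it is not a pure 3′-UTR. Its levels were 21.5 and 172 CPM in the WT Inputs, 15.1 and 139 in the KO Inputs, 11.4 and 133 in the WT RIPs and 17.1 and 161 in the KO RIPs. The 3′-UTR of the coding transcript, chr10:120141648-120142714, gave 20.5 and 143 CPM in the WT Inputs, 20.4 and 112 in the KO Inputs, 13.2 and 123 in the WT RIPs and 17.1 and 116 in the KO RIPs. By either region the LPS libraries stood far above the untreated ones in both genotypes and both assays. The WT over KO RIP ratio was −0.68 (−1.82 to 0.45) and −0.28 (−0.56 to 0.00) for the first region, and 0.16 and 0.86 on library totals. For the coding transcript's region it was −0.48 (−1.59 to 0.63) and 0.07 (−0.25 to 0.40). The input-corrected ratio of the first region after LPS was −0.58 (−0.96 to −0.20), which turns to 0.62 on library totals.

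Traf6, the ubiquitin ligase downstream of the IRAKs, was counted over chr2:101697500-101701669 (plus strand, 3′-UTR). Its levels were 85.0 and 111 CPM in the WT Inputs, 73.2 and 93.9 in the KO Inputs, 85.2 and 116 in the WT RIPs and 81.2 and 117 in the KO RIPs. Input and RIP, and WT and KO, lay side by side, with WT over KO ratios of the RIPs of 0.04 (−0.47 to 0.55) and −0.03 (−0.35 to 0.30), or 0.88 and 1.11 on library totals. Traf3, the ligase of the interferon branch, was counted over chr12:111262061-111267153 (plus strand, 3′-UTR). It was at 87.2 and 105 CPM in the WT Inputs and 77.7 and 89.2 in the KO Inputs, but at 37.8 and 46.1 in the WT RIPs and 34.2 and 62.0 in the KO RIPs. The 4 RIPs were therefore all below the 4 Inputs. The WT over KO RIP ratio was 0.08 (−0.69 to 0.85) and −0.44 (−0.90 to 0.02), the latter 0.70 on library totals, and the input-corrected ratio after LPS was −0.67 (−1.23 to −0.11), which turns to 0.53 on library totals.

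**Figure D3:**
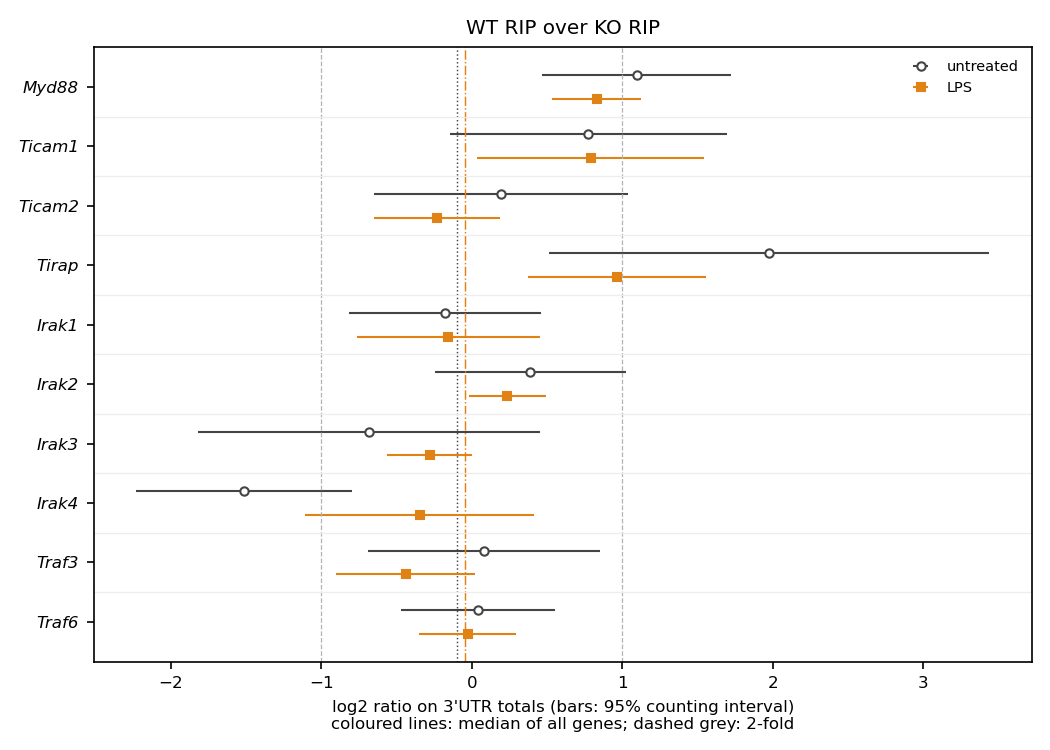
Log2 ratio of the WT RIP over the KO RIP for each gene, untreated (open circles) and after LPS (orange squares), with 95% counting intervals. The median of all genes lies at −0.10 (untreated, dotted) and −0.04 (LPS, dash-dotted). Tirap and Myd88 lie to the right at both treatments, and Irak4 lies to the left when untreated.

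As a group the 10 genes did not stand away from all genes in the WT over KO comparison of the RIPs. In untreated BMDMs, 2 of them (Myd88 and Tirap) passed 2-fold in the WT direction, where 9.6% of 8064 genes did, and 1 (Irak4) in the KO direction, where 14.2% did. After LPS none passed 2-fold in either direction, where 9.71% and 17.5% of 8310 genes did. The median of the 10 ratios was 0.14 untreated and −0.09 after LPS, against −0.10 and −0.04 over all genes. Under the input-corrected ratio, Myd88 and Tirap passed 2-fold upwards untreated (14.7% of all genes) and Irak3 downwards (17.4%). The Irak3 value of −1.19 had an interval that crossed 0 (−2.63 to 0.24) and rests on 8 reads in the untreated KO RIP. It is that of the counted region, not of the coding transcript's 3′-UTR. None of the 10 passed after LPS (11.6% and 20.9%). The Inputs of WT and KO differed by over 2-fold for none of the 10 genes, untreated (2.43% of all genes higher in WT and 4.79% lower) or after LPS (3.21% and 2.43%).

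The criteria of the study combine an adjusted or unadjusted p-value, the log2 ratio and the MACS score. They were applied here with a chi-square test on the reads of 2 libraries, and they compare those libraries, not the conditions. Applied to the RIPs on 3′-UTR totals, they took Tirap in the WT direction in untreated BMDMs (7.02% of genes) and Irak4 in the KO direction (11.4%). After LPS they took Myd88 in the WT direction (11.5%) and none of the 10 in the KO direction (17.5%). With the log2 ratio on library totals and the p-values kept on 3′-UTR totals, Myd88 was taken untreated too, and Tirap after LPS. The share of all genes taken under that setting is not given here. The study's own ratio was of RPKM, which divides reads by region length and library total, so its threshold differs from the one on 3′-UTR totals.

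The RIP was set against its own Input to show how far each mRNA was recovered in each genotype, with the caveat that the labels name a ribosomal RNA depletion for Inputs alone. None of the 10 genes was over 2-fold higher in a RIP than in its Input, whereas 25.5% (WT, untreated), 23.5% (WT, LPS), 18.2% (KO, untreated) and 17.2% (KO, LPS) of all genes were. Traf3 was over 2-fold lower in the WT RIPs, at −1.20 untreated (−1.67 to −0.73) and −1.18 after LPS (−1.51 to −0.85), where 21.5% and 26.9% of all genes were. In the untreated KO RIP, Traf3 (−1.11, −1.85 to −0.37) and Tirap (−1.85, −3.34 to −0.37) were the ones over 2-fold lower, against 12% of all genes. None was over 2-fold lower in the KO after LPS, against 12% of all genes, where Traf3 was at −0.51 (−0.96 to −0.06). Traf3, with the most CPEs of the 10, was thus lower in RIP than in Input in both genotypes. The counting intervals of WT and KO did not overlap for Myd88 at either treatment. It was at 0.05 (−0.31 to 0.42) and 0.07 (−0.12 to 0.25) in the WT and −0.995 (−1.64 to −0.36) and −0.88 (−1.19 to −0.57) in the KO. Irak3 lay the other way round in its counted region, although its WT and KO intervals overlapped untreated. Its WT values were −0.91 (−1.80 to −0.03) and −0.37 (−0.59 to −0.15), the second 0.14 on library totals. Its KO values were 0.28 (−0.85 to 1.41) and 0.21 (−0.10 to 0.52), or −0.49 and −0.47 on library totals. Untreated Irak4 was at −0.76 (−1.44 to −0.07) in the WT. In the KO it was at 0.10 (−0.53 to 0.73), or −0.67 on library totals. Ticam2 was above its Input in the KO after LPS at 0.68 (0.19 to 1.17), −0.01 on library totals, and Tirap in the WT after LPS at 0.80 (0.38 to 1.22). Irak4 was below it in both genotypes after LPS (−0.81 in the WT and −0.82 in the KO). Library totals shift the WT value by 0.51, so that its interval crosses 0, and the KO value by −0.68, so the genotypes then differ. The medians of the 10 ranged from −0.21 to −0.05 over the 4 comparisons, and those of all genes from −0.03 to 0.03.

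**Figure D4:**
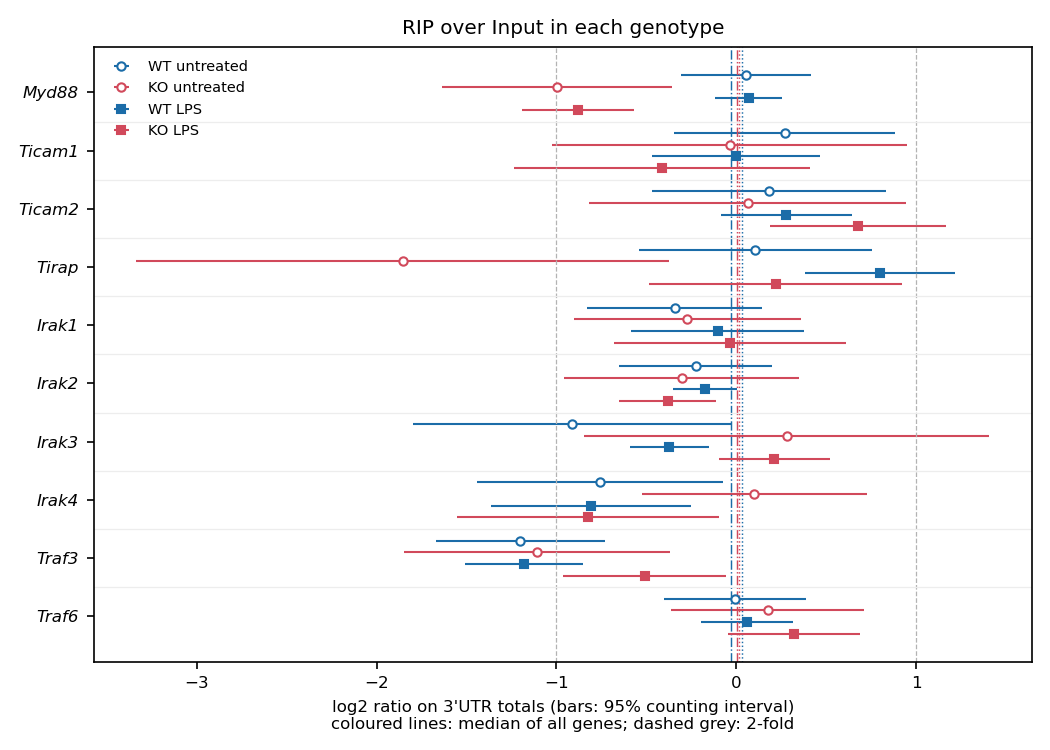
Log2 ratio of RIP over Input for each gene in WT (blue) and KO (red), untreated (open circles) and after LPS (filled squares), with 95% counting intervals and the median of all genes as a line in the same colour. Myd88 is at the all-gene median in WT and below it in KO, and all 4 points of Traf3 are below 0.

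Irak3, Irak2 and Myd88 were more abundant after LPS in both genotypes, and Irak1 was less abundant. In the WT Input, Irak3 was 7.62-fold, Irak2 3.11-fold and Myd88 2.09-fold higher after LPS, and in the KO Input the folds were 8.83, 3.77 and 2.35. These 3 genes passed 2-fold in both Inputs, where 14.8% (WT) and 13.5% (KO) of all genes did. None of the 10 was over 2-fold lower, where 17.5% and 21.2% of all genes were. Irak1 came closest, at −0.91 in the WT (−1.43 to −0.40) and −0.93 in the KO (−1.42 to −0.44), with a similar −0.67 (−1.12 to −0.22) and −0.69 (−1.45 to 0.07) in the RIPs. Ticam2 was higher by 0.78 (0.17 to 1.38) and 0.68 (0.11 to 1.25). Traf6 and Traf3 were at 0.20 to 0.37, Ticam1 at 0.02 and 0.11, Tirap at 0.16 and −0.22 and Irak4 at −0.17 and −0.46, all with intervals that reached 0. For each of the 10 genes the LPS change differed between the WT and KO Inputs by less than counting error, from −0.28 for Irak2 (−0.77 to 0.21) to 0.37 for Tirap (−0.52 to 1.26).

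In the WT RIP the same 3 genes had the highest ratios. It held 11.1-fold more Irak3, 3.22-fold more Irak2 and 2.12-fold more Myd88 after LPS, 3 of 10 genes over 2-fold higher where 12.1% of all genes were. In the KO RIP the folds were 8.41, 3.58 and 2.54, and Tirap (3.62, from 3 untreated reads) and Ticam2 (2.45) also passed, 5 of 10 where 14.1% of all genes did. Irak4 was 2.61-fold lower in the KO RIP after LPS, 1 of 10 where 21.7% of all genes were over 2-fold lower, and none of the 10 was in the WT RIP, where 21.9% were. Read over its distal region instead, Irak4 turned to 0.86 in that comparison. In the WT, the change of the RIP exceeded that of the Input by between −0.27 (Ticam1) and 0.69 (Tirap), with every interval reaching 0. The median LPS change of the 10 was 0.31 (WT Input), 0.28 (KO Input), 0.64 (WT RIP) and 1.05 (KO RIP), and that of all genes −0.08, −0.18, −0.24 and −0.20. The comparisons reuse the same 8 libraries, so their values are given side by side only.

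**Figure D5:**
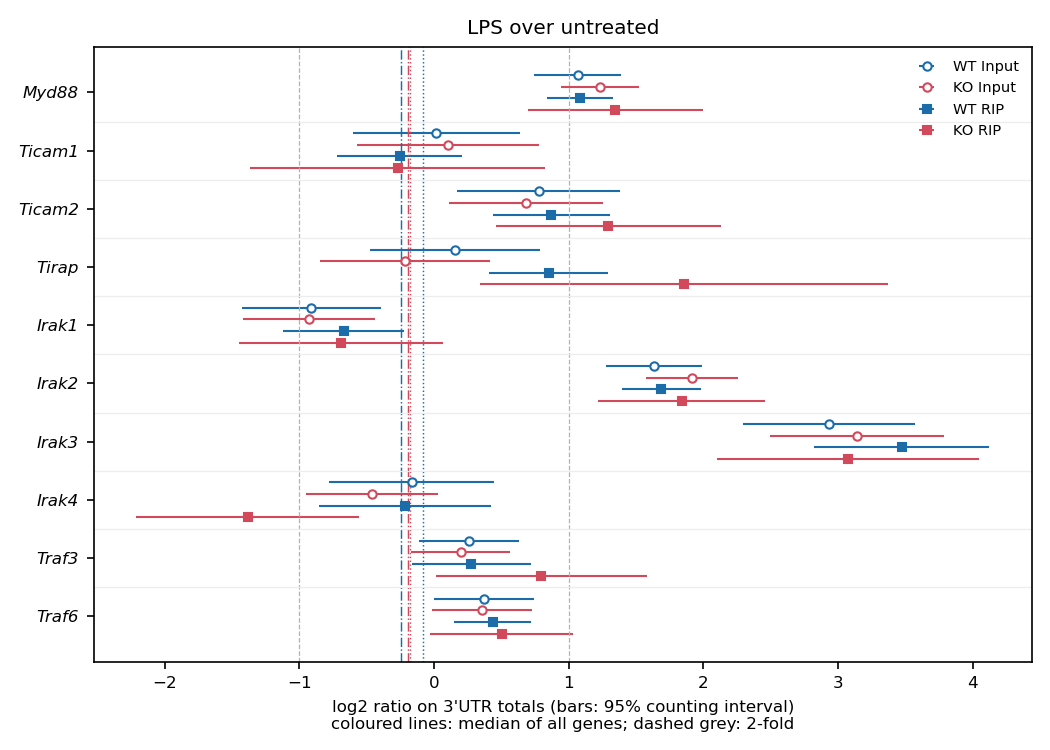
Log2 ratio of LPS over untreated for each gene in the Inputs (open circles) and RIPs (filled squares) of WT (blue) and KO (red), with 95% counting intervals. Irak3, Irak2 and Myd88 lie to the right in all 4 comparisons, Irak1 lies to the left in all 4, and WT and KO Inputs lie side by side.

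Per kilobase of region, Myd88 was the most abundant of the 10 in every Input. In the untreated WT Input it stood at 104 CPM per kilobase, followed by Irak2 (63.1), Ticam1 (56.1), Irak1 (40.2), Irak4 (27.3), Ticam2 (24.9), Irak3 (20.9), Traf6 (20.4), Traf3 (17.1) and Tirap (8.97). After LPS the order in that Input was Myd88 (219), Irak2 (198) and Irak3 (167), far ahead of Ticam1 (57.6), and Tirap (10.2) was last again. Irak3 had thus moved from the seventh place to the third. In the untreated order, the intervals of neighbours overlapped everywhere except between Myd88 and Irak2 and between Traf3 and Tirap. After LPS they overlapped except between Irak3 and Ticam1, Ticam2 and Traf6, and Traf3 and Tirap.

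The genes whose log2 CPM followed that of Myd88, the member with the most reads, most closely over the 8 libraries were Slc7a8 (Pearson r = 0.992), Capza1 (0.992) and Midn (0.985), among the 4093 genes that reached 10 reads in all libraries. These are descriptions over 8 libraries that share cultures. Among the members that reached this minimum, r with Myd88 was 0.91 for Irak2 and −0.78 for Irak1.

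Of 42 other genes of the pathway (the receptor complex, other TRAFs, the TAK1 and IKK complexes, ubiquitin enzymes, RIP kinases and inhibitors), 40 were in the tables. Between the RIPs of WT and KO, 2 of 33 with enough reads were over 2-fold higher in WT untreated (Birc2 and Peli1) and 3 lower (Rnf31, Tab1 and Traf2). Of all genes 9.6% and 14.2% were. After LPS 2 of 34 were higher (Tlr4 and its co-receptor Ly96) and 4 lower (Rnf31, Tab1, Traf1 and Ube2v1), where 9.71% and 17.5% of all genes were. The counting intervals of Birc2 untreated (−0.77 to 3.44) and Ly96 after LPS (−0.01 to 4.15) spanned both directions. Those of the genes named as lower lay wholly on the KO side on 3′-UTR totals. With library totals the ratios shift up by 0.84 untreated and 1.14 after LPS, and each of these intervals then crosses 0. The ratio of Ube2v1 after LPS, at −1.02, then turns above 0. For Tlr4 after LPS the WT Input was also above the KO Input, by 1.25 (−0.38 to 2.88). Its input-corrected ratio there was 0.29 (−1.70 to 2.27), so a higher recovery of Tlr4 in the WT RIP was not shown. Peli1, a ubiquitin ligase that acts on IRAKs, was at 1.32 untreated and 0.99 after LPS, values close to those of Myd88, and it was over 2-fold above its Input in the WT RIPs, at 2.59 and 2.34, and in the KO RIPs, at 1.12 and 1.25, which none of the 10 genes was. In the WT Input 10 of 34 of these genes were over 2-fold higher after LPS (14.8% of all genes) and 2 lower (17.5%), and in the KO Input 10 of 34 were higher (13.5%) and 5 lower (21.2%). Among those higher in both were the receptor component Cd14 (2.15 in WT and 2.01 in KO) and the deubiquitinase Tnfaip3 (3.12 and 2.97). Tlr4 itself was among those lower, with wide intervals, at −1.25 (−2.36 to −0.14) in WT and −2.70 (−4.24 to −1.17) in KO. Its KO Input and KO RIP after LPS held fewer than 10 reads together.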

How the data were processed

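The data are 16 sequencing runs of 8 RIP and Input libraries. According to the study's methods, cells were crosslinked with formaldehyde, reads were aligned to mm10 with Bowtie2 2.2.2 in local mode, duplicates were removed with sambamba, and reads over Ensembl 3′-UTRs were counted. The deposited counts are whole reads per region, summed over lanes. The deposited RPKM divides them by region length and by a library total, which was used only to recover that total. The deposited score is the highest MACS 1.4.2 peak score over a region, and the deposited width is in bases. The authors' fold changes and p-values were not used. Strand was not marked by the kit named in the labels.

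Of 31117 rows, 495 without a symbol (0.902% to 1.04% of reads) were left out. The members and gene lists were chosen with earlier results of these data known. Counts were scaled to the sum over the other 30622 rows, the region with the most reads was taken per gene, and 1 read was added before log2. Genes needed 10 reads in a pair of libraries, and no ratio was given where both had 3 or fewer. Intervals of 95% were Wilson (levels) or normal from the counts (ratios). With 1 library per group, a fit of these groups by edgeR's quasi-likelihood test has no residual degrees of freedom, and an additive fit over the libraries was not made. The study's criteria were applied with chi-square p-values of a region's reads against all others, and took regions with a Benjamini-Yekutieli adjusted p under 0.02 and a log2 ratio over 0.5, or p under 0.02 and a ratio over 1.2, or a score over 500 and a ratio over 0.5. Named were all 10 members, their other regions, Cpeb4, and the 3 genes most like the member with the most reads. Scripts ran in Python 3.11.15 with pysam 0.24.0 and in R with edgeR 4.0.16 (TMM), and were tested on simulated data. Alternatives were TMM, median-of-ratios and library-total scaling, 0.1 reads added, the longest region, distinct regions summed, a minimum of 50 reads, and none.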

Additional observations from a re-analysis of the deposited data

How the results depend on the processing

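Scaling decided the level of the comparisons between RIPs. On library totals the median of the 10 genes was 0.98 (WT over KO RIP, untreated), 1.05 (LPS) and 1.17 (input-corrected, LPS), 0.46 (RIP over Input, WT LPS), −0.92 and −0.89 (KO, untreated and LPS) and 1.16 (LPS over untreated, WT RIP). All genes shifted alike, so the difference of the 10 from the median of all genes did not change. The study's criteria in the WT direction took 2 genes untreated under TMM scaling and on library totals, and 2 after LPS on library totals. These settings rescaled the log2 ratio alone and kept the p-values on 3′-UTR totals. The share of all genes taken under them is not given here, so these counts of genes taken have no background. The other alternatives left these medians and counts within counting error or 1.5 times of the values above.

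Counts of members past 2-fold moved by more. The share of all genes past 2-fold under these settings is not given here, so the counts have no background. On library totals the median WT over KO RIP ratio of all genes was 0.75 untreated and 1.1 after LPS. Their median input-corrected ratio after LPS was 1.09. After LPS the median gene was thus itself past 2-fold in both. For the WT over KO RIPs on library totals, 5 members were up and 0 down untreated, and 5 were up after LPS. After LPS 3 were up under TMM, and 1 was up under median-of-ratios scaling, with 0.1 reads added or with distinct regions summed. Input-corrected, 0 were down untreated on library totals, with regions summed or with a 50-read minimum (9 members left), and 6 (library totals) or 1 (TMM, median-of-ratios) were up after LPS. For RIP over Input, 1 was up and 0 down in the WT after LPS (TMM and library totals). In the KO, 5 were down at each treatment on library totals, 1 was up at each with the longest region, and 1 was down untreated with 50 reads (7 members left). In the WT RIP, 5 were up after LPS under each of the 3 scalings. In the KO RIP, 0 were down after LPS with the longest region, with regions summed or with 50 reads. The last reflects Irak4, whose LPS over untreated ratio in the KO RIP reversed to 0.86 over its longest region, which has fewer reads.

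No paired analysis was possible because the shared replicate numbers are sequencing lanes that are summed in the deposited columns, and no replicate was there to leave out. Depth limits the untreated KO RIP most: 3 reads there are 6.41 CPM, the level of Tirap in that library.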
